A study of Homo sapiens with 6 samples.

Results

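The clustered protocadherins are cell-surface proteins of the cadherin superfamily, and their genes lie side by side on human chromosome 5 in the alpha, beta and gamma clusters. Each alpha and gamma gene has its own promoter and a large first exon that encodes the extracellular part, and that exon is spliced to exons shared by the whole cluster. Beta genes are single-exon genes without a shared part. In neurons each cell uses only some of the promoters, looping of the DNA by CTCF and cohesin takes part in that choice, and the resulting mix of proteins lets a neuron tell its own branches from those of other cells. In epithelial tumours several of these promoters are known to carry DNA methylation.

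The genes were chosen by symbol: every gene named PCDHA, PCDHB, PCDHGA, PCDHGB or PCDHGC followed by a number in the platform annotation, on probe sets that name that gene alone. The symbol alone decides which genes belong, but the gene family itself was picked with earlier results of these data known. The rule gave 53 of the 18656 genes measured: 13 alpha, 18 beta, 12 gamma A, 7 gamma B and 3 gamma C genes, read by 149 probe sets in all. RefSeq lists 51 of them as protein-coding, and PCDHB17P and PCDHB18P as transcribed pseudogenes. PCDHAC1 and PCDHAC2, whose symbols carry a letter before the number, are no members.

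The samples were AGS cells, an established human gastric adenocarcinoma line, hybridized to Affymetrix Human Gene 1.0 ST arrays. The inhibitor group (3 arrays) received an anti-miR oligonucleotide against miR-25-3p, and the control group (3 arrays) a non-targeting control RNA. Both groups were transfected with the lipid reagent oligofectamine, a second time after 24 h, and harvested 48 h after the first transfection. The labels call the arrays biological replicates but do not say whether the cultures were separate in time, so p-values measure the spread between these arrays. The mature microRNA was not measured, and the arrays give no check of how far it was inhibited. It is shown here because it defines the comparison, with the RefSeq sequence (GRCh38.p14, chr7:100093571-100093592, minus strand) and its seed, bases 2 to 8, in capitals.

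hsa-miR-25-3p: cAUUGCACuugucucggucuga

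Protocadherin promoters carry a conserved element around the letters CGCT, which is known as a CTCF site. Windows of 30 bases are shown for a selection of the genes named below, with the cluster's 8-letter form in capitals. All lie on the plus strand of chromosome 5 in RefSeq's GRCh38.p14. The order is PCDHA2 (chr5:140794779-140794808), PCDHA4 (chr5:140806977-140807006), PCDHA8 (chr5:140841128-140841157), PCDHA12 (chr5:140875242-140875271), PCDHB2 (chr5:141094542-141094571), PCDHB16 (chr5:141182308-141182337), PCDHGA9 (chr5:141402714-141402743) and PCDHGB2 (chr5:141359921-141359950).

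PCDHA2: cttttagccacatgATGTCGCTgtccacca

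PCDHA4: tttggagccacatgATGTCGCTctttacca

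PCDHA8: tttgaagccacatgATGTCGCTgtctacca

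PCDHA12: taatcagtcacatgATGTCGCTctacactc

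PCDHB2: ggaagagacgcgggGTGGCGCTgcagcctt

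PCDHB16: agtgagaacgcgtgGTGGCGCTgcaggtta

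PCDHGA9: ttaggactctgagcGCCGCTGTtgatcaac

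PCDHGB2: gaaaacctctgagcGTCGCTGTtggtcaaa

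The capitals differ between the alpha, beta and gamma windows. They begin 45 to 77 bases before an annotated start, except in PCDHGB2, where they begin 201 bases before it. Promoters (250 bases before to 50 after a start) were held for 45 of the 53 genes, and each form was searched on both strands. A gene counted if any of its promoters matched, whereas the percentages are of single promoters, those of the 45 genes included. ATGTCGCT was found in 9 of 11 alpha genes and in none of the other clusters, against 0.234% of all 35116 promoters. GTGGCGCT was found in 13 of 14 beta genes and in no alpha or gamma gene, against 1.15% of all promoters. GNCGCTGT was found in 10 of 11 gamma A, 5 of 7 gamma B and 2 of 2 gamma C genes, and also in 5 alpha genes and 1 beta gene, against 4.35% of all promoters. All forms hold the letters CGCT, which occur in 70.0% of all promoters. The alpha form followed by GT also holds the whole gamma form, as in the PCDHA2 and PCDHA8 windows, so a gamma form in an alpha gene need not be a second site. The forms were read off these promoters before they were counted, so the counts are a description. A match does not show that a factor was bound.

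Most clustered protocadherin genes gave a low signal in AGS cells. A gene's value on an array is the mean of the log2 values of its probe sets, and over the 6 arrays the 53 genes ranged from 2.05 to 6.49 with a median of 3.41, against a median of 5.77 for all genes. For orientation, 371 olfactory receptor genes, which epithelial lines are not known to use, had a median of 2.69 and a 95th percentile of 4.28. Above that percentile lay 12 of the 53 genes: 1 of 13 alpha, 5 of 18 beta, 3 of 12 gamma A, 2 of 7 gamma B and 1 of 3 gamma C genes. Only PCDHB2 and PCDHGA5 lay above the median of all genes. Array signal also depends on how well each probe binds, so the order of genes by signal is not an order of transcript amounts.

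**Figure D1:**
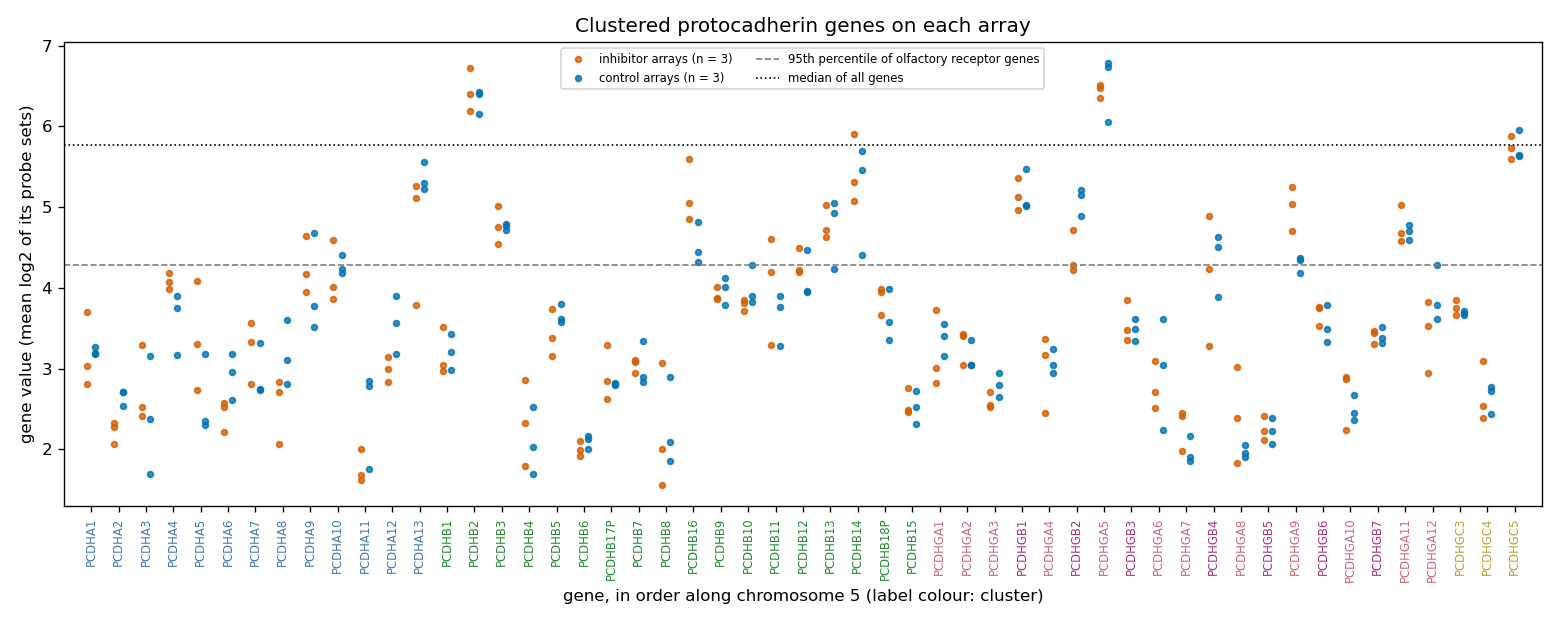
Gene values (mean log2 of the probe sets, vertical axis) of the 53 genes in their order along chromosome 5, with 1 point per array, inhibitor arrays left of control arrays. Most points lie below the dashed line at 4.28, the 95th percentile of olfactory receptor genes, and PCDHB2 and PCDHGA5 stand highest.

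Among the brighter genes, most had overlapping arrays in the groups. PCDHB2 had 6.19, 6.40 and 6.73 in inhibitor arrays, against 6.43, 6.15 and 6.40 in control arrays. PCDHB14 had 5.08, 5.31 and 5.91 in inhibitor arrays, against 4.41, 5.46 and 5.69 in control arrays. The ranges of both beta genes overlapped, and control replicate 1 was the low array for PCDHB14. PCDHGA5, read by 1 probe set, had 6.51, 6.48 and 6.35 in inhibitor arrays, against 6.78, 6.74 and 6.06 in control arrays. PCDHGA11 had 5.02, 4.58 and 4.68 in inhibitor arrays, against 4.78, 4.59 and 4.70 in control arrays. Neither gamma A gene separated the groups. PCDHGB1, also on 1 probe set, had 5.36, 5.13 and 4.96 in inhibitor arrays, against 5.01, 5.03 and 5.47 in control arrays, again overlapping.

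The gamma C genes have known roles in neurons: in mice, PCDHGC4 is needed for the survival of interneurons and PCDHGC3 for branching of dendrites. PCDHGC3 had 3.85, 3.75 and 3.67 in inhibitor arrays, against 3.67, 3.72 and 3.69 in control arrays. PCDHGC4, the dimmest gamma C gene, had 2.39, 2.53 and 3.09 in inhibitor arrays, against 2.72, 2.77 and 2.44 in control arrays. PCDHGC5 had 5.74, 5.60 and 5.88 in inhibitor arrays, against 5.95, 5.64 and 5.63 in control arrays. None of the 3 separated the groups, and their differences were 0.064 (SE 0.088), 0.030 (SE 0.18) and -0.0056 (SE 0.12), inhibitor minus control on the log2 scale as throughout. The level of PCDHGC5 came from a single probe set, which averaged 9.74 in inhibitor and 9.76 in control arrays, while its other 2 probe sets averaged 4.08 and 3.39 in inhibitor arrays and 3.92 and 3.54 in control arrays.

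Such unevenness was common. Among the 45 genes with more than 1 probe set, the distance between the brightest and the dimmest had a median of 2.23 on the log2 scale and reached 6.29 for PCDHGC5. Of the 149 probe sets, 105 (70.5%) lay among the dimmest 30% of all named probe sets, below a level of 4.46. PCDHB3, for example, had a probe set at 7.73 in inhibitor and 7.50 in control arrays, and its other 3 averaged 3.35, 3.18 and 4.84 in inhibitor arrays and 3.56, 2.92 and 5.04 in control arrays. PCDHB3 lies outside the naming rule and was picked after its values were seen.

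A further 6 probe sets each name 15 genes, PCDHAC1 and PCDHAC2 included, and were taken to read exons that all alpha genes share. The positions of these probe sets were not checked. The brightest had 7.47, 7.60 and 6.89 in inhibitor arrays, against 7.23, 7.09 and 6.69 in control arrays. It was thus brighter than any alpha gene's own value, although different probes cannot be ranked by amount. The next had 5.79, 6.69 and 5.79 in inhibitor arrays, against 6.51, 6.96 and 5.84 in control arrays. The ranges overlapped for all 6 shared probe sets, including the dimmest, which had 0.86, 0.77 and 1.90 in inhibitor arrays, against 1.73, 3.31 and 3.17 in control arrays. The annotation used here names no shared gamma probe set.

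The miR-25-3p inhibitor was followed by no called change in any clustered protocadherin gene. By limma's moderated test over all genes, 0 of the 53 genes passed a Benjamini-Hochberg adjusted p of 0.05, as did 0% of all genes tested, and the smallest adjusted p among the 53 was 0.79. The differences ranged from -0.69 to 0.76 with a median of 0.026, against a median of 0.0021 over all genes, and 29 were positive and 24 negative. At the level of probe sets, 0 of 149 passed (0% of all probe sets), with 12 (8.05%) at an unadjusted p under 0.05 against 6.21% of all probe sets.

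At an unadjusted p under 0.05 there were 9 genes (17.0%) against 6.12% of all genes, 3 with positive differences (background 2.95%) and 6 with negative ones (background 3.16%). The arrays of the groups did not overlap for 7 genes (13.2%), against 12.9% of all genes, so by that measure the clusters were at the background. Of the 7, inhibitor arrays lay above all control arrays for 3 (background 5.2%) and below them for 4 (background 7.68%). Differences of 0.5 or more in either direction were found for 8 genes (15.1%) against 0.59% of all genes. The genes were also measured with less precision: their median SE was 0.17 against 0.11 for all genes, and a gene was read by a median of 3 probe sets against 10. Their median SD within a group was 0.26 against 0.13, and limma draws each gene's variance towards a value common to all genes. Whether precision accounts for the share of large differences, or for the share at an unadjusted p under 0.05, was not tested. The unadjusted 95% interval of the difference lay within 0.5 of 0 for 22 genes and within 1 of 0 for 41. These widths are no limit of detection after adjustment over all genes. With 3 arrays per group, even PCDHGA9, at a difference of 0.70, was not called (adjusted p = 0.79 in limma), and smaller effects could be missed.

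**Figure D2:**
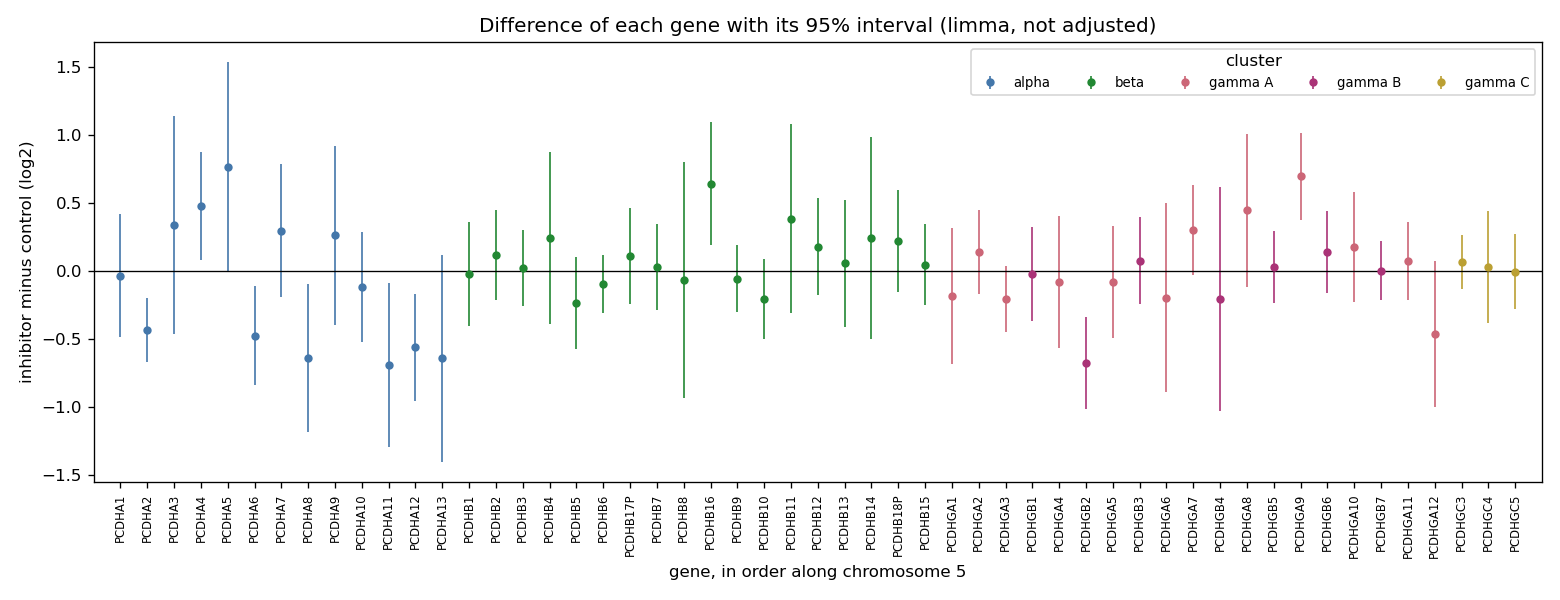
Difference of each gene, inhibitor minus control on the log2 scale, with its 95% interval from limma (unadjusted), in order along chromosome 5 and coloured by cluster. The alpha genes scatter most widely, on both sides of 0, and the gamma C genes lie close to 0.

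The alpha genes scattered most. Of 13, 5 differed by 0.5 or more, against 0.59% of all genes, and 6 had an unadjusted p under 0.05, against 6.12% of all genes. Of these 6, 5 had negative differences and 1 a positive one. The arrays did not overlap for 30.8% of the alpha genes, against 12.9% of all genes, with 3 below and 1 above all control arrays. The median difference was -0.12, and limma called 0 of the 13. The alpha genes were also the least precise of the clusters. Their median SE was 0.22 against 0.11 for all genes, and their median SD within a group 0.36 against 0.13. Whether this accounts for their scatter was not tested. PCDHA2 had 2.28, 2.32 and 2.07 in inhibitor arrays, against 2.72, 2.71 and 2.54 in control arrays, a difference of -0.43 (SE 0.10, adjusted p = 0.79 in limma). All 4 of its probe sets had negative differences and the gene's arrays did not overlap, although each probe set alone did, and its signal lay below the olfactory receptor median of 2.69. PCDHA12 had 2.83, 3.14 and 2.99 in inhibitor arrays, against 3.19, 3.57 and 3.90 in control arrays. Its arrays did not overlap either, with a difference of -0.56 (SE 0.17), but its probe sets disagreed: 1 averaged 2.62 in inhibitor and 3.86 in control arrays, the other 3.36 in inhibitor and 3.24 in control arrays.

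PCDHA11, the dimmest alpha gene, had 1.68, 2.00 and 1.62 in inhibitor arrays, against 1.76, 2.78 and 2.85 in control arrays, a difference of -0.69 (SE 0.27). PCDHA8 had 2.06, 2.83 and 2.71 in inhibitor arrays, against 2.81, 3.11 and 3.61 in control arrays, a difference of -0.64 (SE 0.24). PCDHA13, the brightest alpha gene on its 1 probe set, had 5.26, 5.11 and 3.79 in inhibitor arrays, against 5.30, 5.23 and 5.56 in control arrays. Its difference of -0.64 (SE 0.34) rested largely on inhibitor replicate 3 and was -0.18 without that array. A probe set of PCDHA11 with 2.30, 1.97 and 1.90 in inhibitor arrays, against 2.64, 3.92 and 4.14 in control arrays, ran close to the separating probe set of the neighbouring PCDHA12. The first exons of alpha genes resemble each other, and whether probes also bind neighbouring transcripts was not tested. PCDHA8 and PCDHA11 overlapped through 1 array each: inhibitor replicate 2 for PCDHA8 and control replicate 1 for PCDHA11.

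Other alpha genes differed the opposite way. PCDHA5 had 3.30, 2.74 and 4.08 in inhibitor arrays, against 3.18, 2.30 and 2.35 in control arrays, a difference of 0.76 (SE 0.34) with overlapping arrays, which was 0.41 without inhibitor replicate 3 and 1.08 without inhibitor replicate 2. PCDHA4 had 3.99, 4.07 and 4.19 in inhibitor arrays, against 3.75, 3.90 and 3.17 in control arrays, a difference of 0.48 (SE 0.18) without overlap, which was 0.26 without control replicate 3. Again the probe sets of PCDHA4 disagreed, at 3.83 in inhibitor and 2.79 in control arrays for the dimmer and 4.34 in inhibitor and 4.42 in control arrays for the brighter. PCDHA10 had 4.60, 3.86 and 4.02 in inhibitor arrays, against 4.403, 4.24 and 4.19 in control arrays, with a difference of -0.12 (SE 0.18). The other 5 alpha genes had differences between -0.48 and 0.34. The lowest of these was PCDHA6, the only 1 of the 9 genes above that the naming rule did not take. PCDHA6 had 2.58, 2.22 and 2.52 in inhibitor arrays, against 2.61, 2.96 and 3.19 in control arrays. Its difference of -0.48 (SE 0.16) came without overlap, although each of its 3 probe sets alone overlapped. Those probe sets averaged 3.06, 3.18 and 1.08 in inhibitor arrays and 4.29, 3.01 and 1.45 in control arrays.

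In the beta cluster 1 of 18 genes had an unadjusted p under 0.05, against 6.12% of all genes. PCDHB16 had 4.85, 5.06 and 5.60 in inhibitor arrays, against 4.32, 4.45 and 4.81 in control arrays, a difference of 0.64 (SE 0.20, adjusted p = 0.79 in limma) without overlap. One probe set carried this, with 3.40, 3.73 and 5.26 in inhibitor arrays, against 1.60, 2.13 and 2.67 in control arrays. The brighter probe sets of PCDHB16 averaged 5.61 and 5.77 in inhibitor arrays and 5.71 and 5.74 in control arrays, so they did not separate the groups. PCDHB6, the dimmest, had 2.00, 2.10 and 1.92 in inhibitor arrays, against 2.13, 2.01 and 2.17 in control arrays. The other 14 beta genes had differences between -0.24 and 0.38, PCDHB9, which has been linked to peritoneal spread of gastric cancer, among them at 3.92 ± 0.079 in inhibitor and 3.98 ± 0.17 in control arrays (SD, n = 3 each). PCDHB9 is named for that background, outside the naming rule.

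In the gamma A cluster the smallest p of all 53 genes belonged to PCDHGA9, which has been described as a growth suppressor in gastric cancer cells. Its only probe set had 4.70, 5.04 and 5.25 in inhibitor arrays, against 4.18, 4.35 and 4.37 in control arrays. All inhibitor arrays lay above all control arrays, with a difference of 0.70 (SE 0.14, 95% interval 0.37 to 1.02), an unadjusted p of 0.000924 and an adjusted p of 0.79 over all genes in limma. PCDHGA8 had 3.02, 2.39 and 1.84 in inhibitor arrays, against 2.05, 1.90 and 1.96 in control arrays, where inhibitor replicate 1 was the high array. PCDHGA7, the dimmest, had 2.45, 2.41 and 1.98 in inhibitor arrays, against 1.91, 2.17 and 1.85 in control arrays. Both overlapped between groups, with differences of 0.45 (SE 0.25) for PCDHGA8 and 0.30 (SE 0.15) for PCDHGA7. The PCDHGA8 difference was 0.14 without inhibitor replicate 1 and 0.73 without inhibitor replicate 3. The PCDHGA7 difference was 1.33 on its brightest probe set and 0.090 when probe sets were combined by their median. The other 7 gamma A genes lay between -0.46 and 0.18.

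In the gamma B cluster PCDHGB2 had 4.72, 4.28 and 4.23 in inhibitor arrays, against 4.89, 5.22 and 5.15 in control arrays. The groups did not overlap, with a difference of -0.68 (SE 0.15, 95% interval -1.02 to -0.34), an unadjusted p of 0.0016 and an adjusted p of 0.79 over all genes in limma. It was carried by 1 of 2 probe sets, with 4.14, 3.31 and 3.40 in inhibitor arrays, against 4.58, 5.27 and 5.11 in control arrays. The other probe set had 5.30, 5.25 and 5.05 in inhibitor arrays, against 5.2, 5.16 and 5.19 in control arrays, and did not separate them. PCDHGB5, the dimmest, had 2.41, 2.23 and 2.12 in inhibitor arrays, against 2.06, 2.23 and 2.39 in control arrays. The other 4 genes of the cluster had differences between -0.21 and 0.14.

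**Figure D3:**
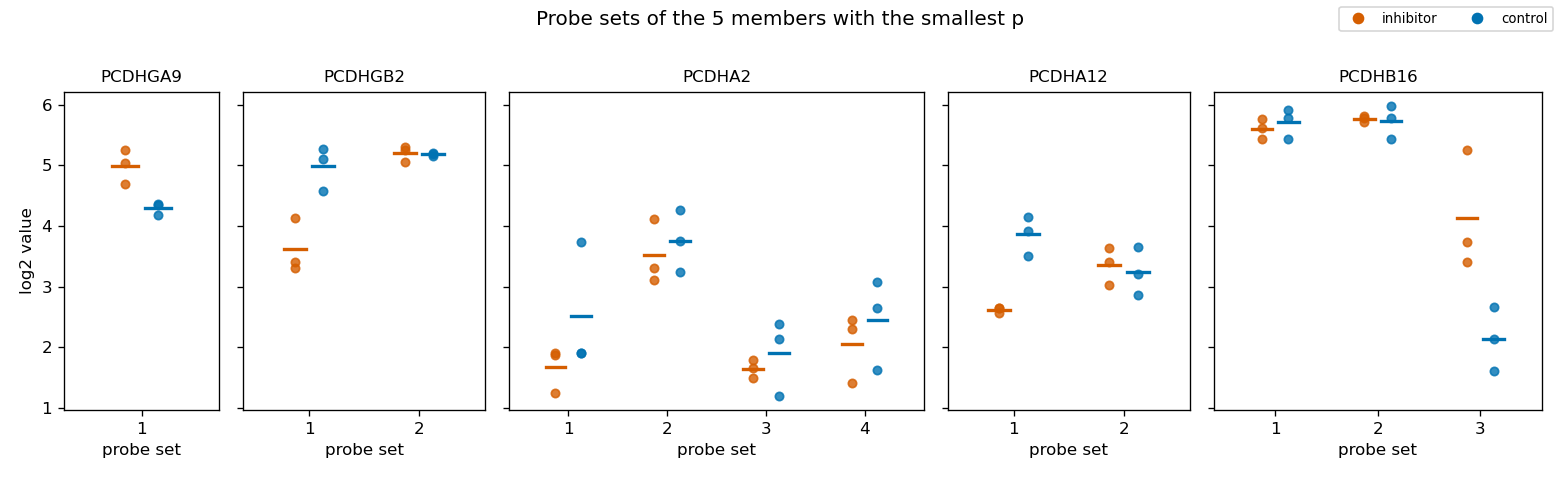
Log2 values of each probe set of the 5 genes with the smallest unadjusted p, 1 point per array and a bar at the mean of 3, inhibitor left of control. In PCDHGB2, PCDHA12 and PCDHB16 a single probe set separates the groups and the others overlap, the 4 of PCDHA2 all overlap, and PCDHGA9 has 1 probe set only.

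Means over the genes of a cluster overlapped between the groups in all 5 clusters. The alpha mean was 3.21 ± 0.082 in inhibitor and 3.32 ± 0.047 in control arrays (SD, n = 3 each), and the beta mean 3.79 ± 0.091 in inhibitor and 3.70 ± 0.13 in control arrays. Gamma A averaged 3.49 ± 0.085 in inhibitor and 3.43 ± 0.068 in control arrays, gamma B 3.80 ± 0.20 in inhibitor and 3.89 ± 0.11 in control arrays, and gamma C 4.06 ± 0.14 in inhibitor and 4.03 ± 0.098 in control arrays. Over all 53 genes the mean was 3.59 ± 0.012 in inhibitor and 3.59 ± 0.055 in control arrays. Because the genes were chosen with earlier results known, these means were not tested.

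**Figure D4:**
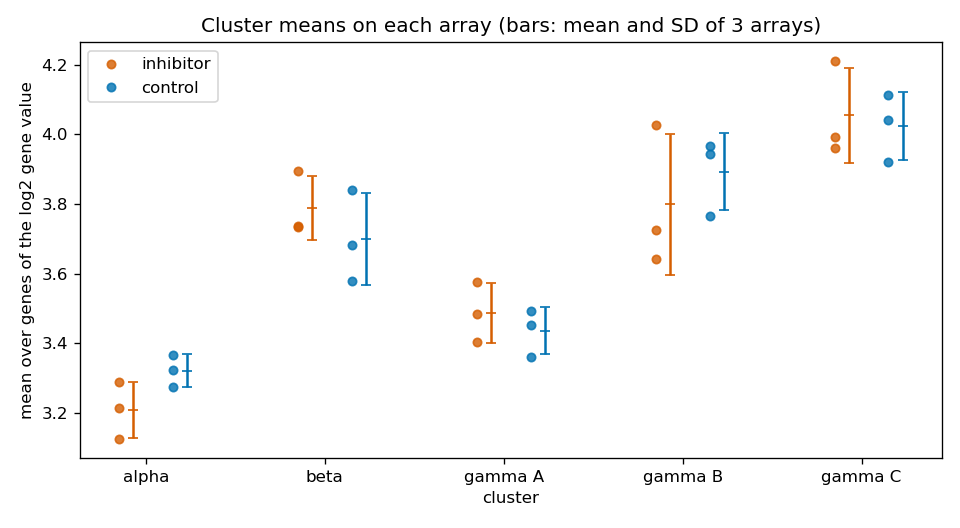
Mean over the genes of each cluster (log2, vertical axis starting above 0) on each array, inhibitor left of control, with bars at the mean and SD of 3 arrays. The groups overlap in every cluster, with the alpha inhibitor mean at 3.21 and the alpha control mean at 3.32.

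Genes that regulate or work with the clusters passed no test either. Limma called 0 of the 12 measured genes of CTCF, cohesin and its loading. An unadjusted p under 0.05 was found for 1 of them, against 6.12% of all genes. CTCF itself, named for its role at these promoters and not by the naming rule, was at 8.55 in inhibitor and 8.65 in control arrays, and the cohesin loader NIPBL had the smallest p of that list, at 8.71 ± 0.10 in inhibitor and 8.47 ± 0.049 in control arrays (SD, n = 3 each). The next was PDS5A, a regulator of cohesin, at 8.999 in inhibitor and 8.80 in control arrays. The list for silencing of the clusters had 17 measured genes, among them the DNA demethylases TET1, TET2 and TET3, which act against DNA methylation. Of the 17, 0 were called. An unadjusted p under 0.05 was found for 3, all 3 with negative differences, against 3.16% of all genes in that direction. There were 12 negative differences, with a median of -0.053 against 0.0021 over all genes. The list means did not overlap, at 7.58 to 7.63 in inhibitor and 7.66 to 7.77 in control arrays. TET1 and TET2, outside the naming rule, differed by -0.23 (SE 0.15) and -0.21 (SE 0.096). The list thus pools enzymes of opposite function, and its mean and count of negative differences are no measure of silencing. The DNA demethylase TET3 had -0.41 (SE 0.13) and the DNA methyltransferase DNMT3A -0.25 (SE 0.11), and the histone methyltransferase EHMT2, named because it completes the 3, -0.21 (SE 0.091), each with an adjusted p of 0.79 in limma.

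Of 19 measured partners and signalling genes 0 were called, with 1 at an unadjusted p under 0.05, against 6.12% of all genes. The actin regulators WASF2 and WASF3 had differences of -0.29 (SE 0.10) and 0.23 (SE 0.11). The 8 measured genes of cleavage, which releases parts of protocadherins, were proteases and other subunits of gamma-secretase. Of the 8, 0 were called and 1 had an unadjusted p under 0.05, against 6.12% of all genes. APH1B, a gamma-secretase subunit, differed by 0.34 (SE 0.12) and the protease ADAM10 by 0.098 (SE 0.089). Of the 14 other protocadherins 0 were called and 0 had an unadjusted p under 0.05. Among them PCDHAC2 was at 4.45 in inhibitor and 4.73 in control arrays and PCDH17 at 3.61 in inhibitor and 3.90 in control arrays. PCDH1, an epithelial protocadherin named after its values were seen, was at 8.03 in inhibitor and 8.07 in control arrays.

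The cells carried epithelial markers, with list means of 9.54 to 9.60 in inhibitor and 9.54 to 9.55 in control arrays over 6 genes. Neural markers, which would accompany neurons, had list means of 4.71 to 4.77 in inhibitor and 4.64 to 4.80 in control arrays over 7 measured genes. Among the 7, the neuronal RNA-binding protein ELAVL4 was at 2.90 in inhibitor and 3.16 in control arrays and the synaptic SNAP25 at 4.19 in inhibitor and 4.03 in control arrays. TUBB3, a tubulin that tumour lines also use and that was picked after its values were seen, was at 9.43 in inhibitor and 9.48 in control arrays. It raised the neural list level, as the next brightest of the list, GFAP, was at 4.96 in inhibitor and 4.89 in control arrays. Leukocyte list means over 4 measured genes were 4.89 to 5.04 in inhibitor and 4.70 to 4.83 in control arrays, without overlap. Among them the monocyte marker CD14 was at 4.71 in inhibitor and 4.25 in control arrays, a difference of 0.46 (SE 0.16, adjusted p = 0.79 in limma), with all inhibitor arrays above all control arrays. CD3E, PTPRC and LYZ, given to complete the list, differed by 0.17, 0.073 and -0.048, all with overlapping arrays. The list level was raised by LYZ, at 8.79 in inhibitor and 8.84 in control arrays, while PTPRC was at 2.62 in inhibitor and 2.55 in control arrays. Endothelial list means over 5 genes were 3.554 to 3.596 in inhibitor and 3.602 to 3.798 in control arrays, also without overlap. Among them PECAM1, an endothelial adhesion protein, was at 3.15 in inhibitor and 3.61 in control arrays, a difference of -0.46 (SE 0.17, adjusted p = 0.79 in limma) with overlapping arrays. KDR, VWF, CDH5 and TEK, given to complete the list, differed by -0.11, -0.029, -0.029 and 0.057, all with overlapping arrays. The endothelial separation thus rested mostly on PECAM1. Fibroblast list means over 5 genes overlapped, at 4.20 to 4.32 in inhibitor and 4.12 to 4.32 in control arrays. The part of these markers in the protocadherin values was not tested. In bulk RNA, fewer cells that use a gene and less RNA per cell cannot be told apart. Over the 53 genes, arrays of the same group correlated at 0.88 to 0.94 and arrays of different groups at 0.87 to 0.93. Over all genes the ranges were 0.9914 to 0.9948 (same group) and 0.9904 to 0.9944 (different groups).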

How the data were processed

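The authors deposited log2 expression values for 257430 exon-sized probe sets on 6 arrays, made with RMA, per the submitters' processing notes, which list Transcriptome Analysis Console and Affymetrix Expression Console as software. Versions, settings and genome build are not given in the sources used here. RMA brings arrays to nearly the same distribution (medians 6.02 to 6.07), so a change common to most genes cannot be seen. Per the labels' protocols, 500 ng of RNA was labelled per sample.

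From the deposited values, 224320 probe sets naming 1 gene were averaged into 18656 genes, with symbols updated through RefSeq (GRCh38.p14). Dim genes were kept. Groups were compared with limma 3.58.1 (R 4.3.3), lmFit and eBayes, adjusted by Benjamini-Hochberg over all genes, and the script was tested on simulated data. The number of arrays limits precision.

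Members and lists were chosen with earlier results of these data known. Named genes were the brightest 2 of each alpha, beta, gamma A and gamma B cluster, all gamma C genes, the 5 largest differences each way, the 5 smallest p, the dimmest of each cluster, and up to 2 genes with the smallest p of each list. The alternatives are given in the closing section.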

Additional observations from a re-analysis of the deposited data

How the results depend on the processing

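No clustered protocadherin gene or probe set passed the threshold under any alternative run, with 0 to 0 genes and 0 to 0 probe sets when 1 array was left out. Over all genes the count was 0 except without control replicate 3, where RGPD4 passed with a difference of 1.40 and an adjusted p of 0.0175 in limma (range 0 to 1). Deviations of same-numbered arrays correlated at -0.032, -0.040 and 0.17, so the numbers were not taken as pairs. With a replicate block in limma, 0 of the 53 genes passed and the smallest adjusted p was 0.73. Cluster means moved by more than the spread between arrays only with other treatments of dim or discordant probe sets. The gamma A difference was -0.034 and the gamma C difference 0.17 with the median of probe sets, and gamma A was 0.19 with the brightest. Without the dimmest 30% of probe sets alpha was 0.15, on fewer genes (26 of 53 left). Without the dimmest 30% of genes (12 left, 1 of them alpha) alpha was -0.64, beta 0.22, gamma A 0.23 and gamma B -0.35. Gamma A was -0.080 without the dimmest 50% (2 left). Uncalled gene differences that turned sign were PCDHA10 (0.30 with the median, 0.13 with the brightest, 0.23 without dim probe sets), PCDHGA11 (-0.083, -0.027 and -0.067 in that order) and PCDHGC5 (0.16 with the median). With the brightest probe set PCDHGB2 was 0.017, PCDHA4 -0.083 and PCDHA12 0.12. Without dim probe sets PCDHGB2 was 0.017 and PCDHB16 -0.033. In these 4 genes the probe set that separated the groups was dropped. Leaving out 1 array gave PCDHA10 -0.34 to 0.031, PCDHB2 -0.028 to 0.24, PCDHB14 -0.15 to 0.49, PCDHGA5 -0.31 to 0.047, PCDHGA11 -0.058 to 0.16, PCDHGB1 -0.13 to 0.13, PCDHGC4 -0.18 to 0.17, PCDHGC5 -0.075 to 0.099 and PCDHGB5 -0.054 to 0.11. Without a change of sign, PCDHA5 ranged from 0.41 to 1.08, PCDHA4 from 0.26 to 0.62, PCDHGA8 from 0.14 to 0.73, PCDHA11 from -1.05 to -0.50, PCDHA8 from -0.82 to -0.41 and PCDHA13 from -0.91 to -0.18. PCDHGA7 was 0.090 with the median of probe sets and 1.33 with the brightest. PCDHGA9 stayed between 0.57 and 0.85 and PCDHGB2 between -0.83 and -0.59. Omitting the PCDHA2 probe set whose identifier lies beyond those of PCDHA3, chosen after seeing the data, gave -0.45.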
